A study of Mus musculus with 32 samples.

Results

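Car3, Aqp4, Padi2, Ccdc36 and 0610009O20Rik are 5 of the 24952 genes in the deposited tables, and all 5 passed the filter on low counts that left 13990 genes for testing. They were matched by gene name and had been chosen by their lower level at the neuromuscular junction (NMJ) than in the surrounding fiber (xNMJ) in these same libraries. Differences between the regions are therefore given as a description and carry no test. RNA came from cross-sections of the tibialis anterior (TA), a fast hindlimb muscle, of male wild-type C57BL/6JRj mice that were caged singly and ate AIN93M diet. Mice 10 months of age had been on the diet for 2 to 3 months and mice 30 months of age for 16 months. Junctions, marked with α-bungarotoxin, and junction-free areas were cut out with a laser and pooled, so that a library is a mixture of many regions. Each region at each age had 8 libraries, 32 in all, and the groups are named 10m or 30m after the age and xNMJ or NMJ after the region. The labels do not say which libraries shared a mouse, and fewer fibers expressing a gene cannot be told apart from less RNA per fiber in such pools.

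A muscle fiber is a single cell with many nuclei, and the nuclei beneath the nerve ending transcribe a set of genes, among them the acetylcholine receptor subunits, that nuclei elsewhere keep low. The 5 genes belong to unrelated families: Car3 encodes the cytosolic carbonic anhydrase of muscle and fat, Aqp4 a water channel of the fast-fiber sarcolemma, Padi2 a calcium-dependent enzyme that converts arginine residues to citrulline, Ccdc36 (also called Iho1) a protein required for DNA breaks in meiosis, and 0610009O20Rik (now called Dele1) a mitochondrial protein that relays mitochondrial stress to the integrated stress response.

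The smallest library held 4026648 counts and the largest 16516788, and the floor of 3 counts was 0.182 CPM in the largest and 0.745 CPM in the smallest. CPM are counts scaled to a fixed library total, and are used throughout unless TMM is named. Fold changes came from edgeR with TMM scaling, which sets the typical gene to no change; the median gene then differed between regions by 0.00 at 10 months and -0.01 at 30 months on the log2 scale. Relative to library totals the TMM factors lowered NMJ against xNMJ by 0.56 at 10 months and 0.64 at 30 months on average (log2 ratio of the groups' geometric mean factors), and both scales are given where it matters. Libraries of the 2 regions also differed in insert size, a fragment length that the labels give for each library and that, per the methods, is an input of the assignment of single-end reads. At 10 months it was 93.4 ± 9.24 bp (SD, n = 8) outside the junction and 111 ± 24.7 bp at it, and at 30 months 99.5 ± 15.7 and 110 ± 9.70 bp.

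Replicate 5 of 30m xNMJ stood apart by a part of its synaptic markers. It held 80.6 CPM of the receptor subunit Chrne, where the other 7 libraries of its group reached at most 0.208 CPM and the median of 30m NMJ was 306 CPM. Prkar1a, a protein kinase A subunit enriched beneath the nerve, read 380 CPM there, 14.5% of the 30m NMJ median. Etv5, Ache, Chrnd, Chrna1, Pdzrn4 and Colq also lay above the other 7 libraries. Rapsn, Musk, Vav3, Chrnb1, Dok7 and Lrtm1 lay within their range. Lrp4, the agrin receptor, lay below them at 616 CPM (others 2727 to 6265). This library is shown as a diamond in the plots, and values without it are given below.

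**Figure D1:**
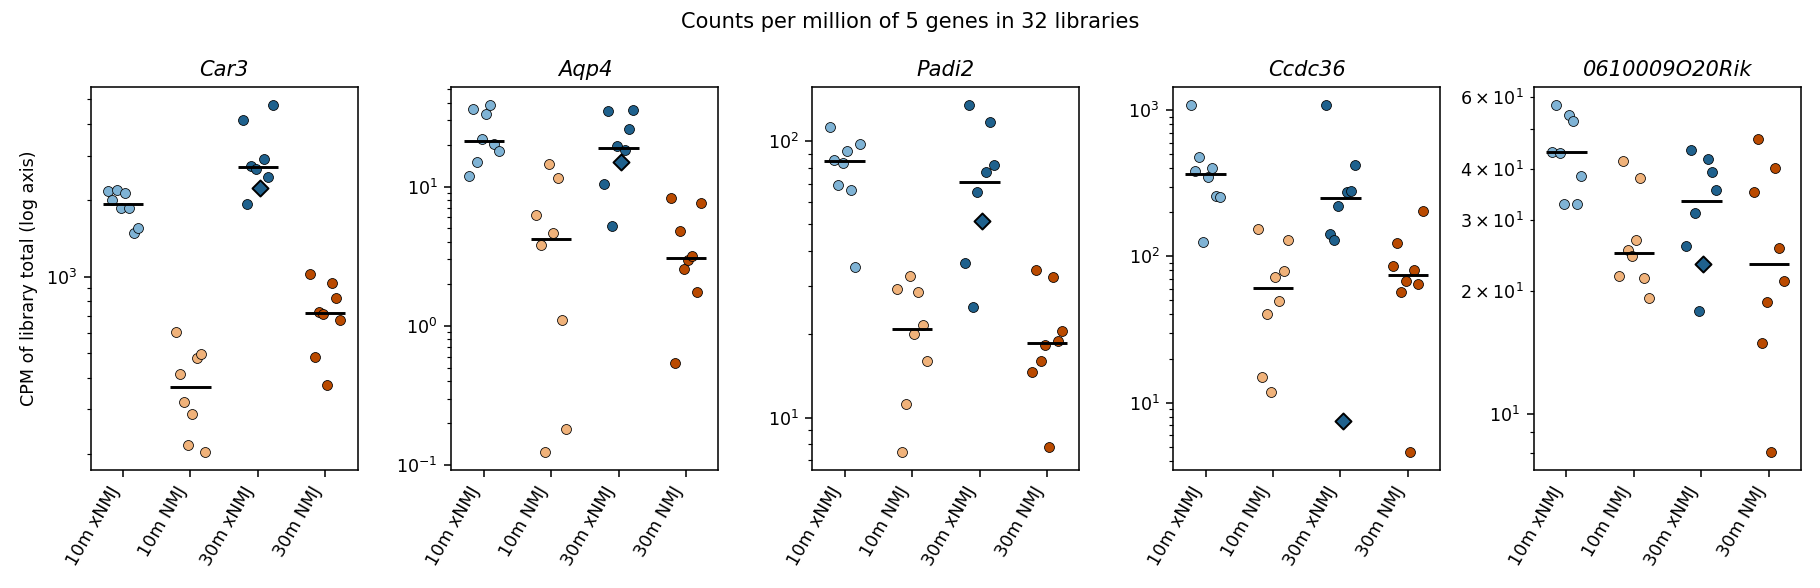
CPM of the library total (log axes, a scale for each gene) of the 5 genes in the 32 libraries, 8 a group. Each point is a library, the line is the median of the group and the diamond is replicate 5 of 30m xNMJ. For Car3 every NMJ point lies under every xNMJ point of the same age, with medians of 1930 and 368 CPM at 10 months, whereas the points of 0610009O20Rik overlap.

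Car3, one of the most abundant soluble enzymes of muscle, was the clearest of the 5. At 10 months its lowest, median and highest xNMJ libraries read 1484, 1930 and 2189 CPM, and its NMJ libraries 203, 368 and 603 CPM. The 30-month xNMJ libraries read 1932, 2695 and 4761 CPM, and the NMJ libraries 374, 721 and 1022 CPM. The regions did not overlap at either age, and Car3 was the only tested gene that fell in this way at both ages on the scale of library totals. At 10 months 0.0929% and at 30 months 0.00715% of all tested genes, 13 genes and 1 gene, had every NMJ library under every xNMJ library. Without replicate 5 of 30m xNMJ the 30-month count was 82 genes, and Car3 was again the only gene at both ages. The log2 fold change was -2.89 ± 0.24 (SE) at 10 months and -2.68 ± 0.24 at 30 months with TMM scaling, and -2.34 and -2.05 with library totals. Car3 lies on chromosome 3 (GRCm38, chr3:14863512-14872523, plus strand) and has 1 well-supported coding transcript of 7 exons and 1679 nt (GENCODE M21).

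Calls between the regions were made with TMM scaling. Over all tested genes 5.05% were lower and 6.5% higher in NMJ at 10 months, and 4.25% and 5% at 30 months, and the counts of the gene lists are read against these shares. Of 16 carbonic anhydrases 10 were tested, Car3 among them. Of the other 9, 1 was lower and 1 higher at 10 months and none passed at 30 months, which is near these shares. Car14, a membrane-bound form, was lower in NMJ at 10 months (-1.29, adjusted p = 0.028, edgeR), where it averaged 15.2 against 25.7 CPM. At 30 months its change of -0.93 did not pass (adjusted p = 0.159). Car12, another membrane-bound form, was higher in NMJ at 10 months (2.57, adjusted p = 0.032), from levels of 0.385 CPM in xNMJ and 3.37 CPM in NMJ. Car2, the widely expressed cytosolic form next to Car3 on the chromosome, had log2 fold changes of 0.59 and -0.43 and passed at neither age (adjusted p = 0.574 and 0.729).

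Car3 is also abundant in fat cells, so that fat cell markers were read beside it. Adipoq, the hormone that defines fat cells, averaged 0 and 0.0177 CPM in xNMJ and NMJ at 10 months and 0.0352 and 1.79 CPM at 30 months, and Lep was at or under 0.0310 CPM in each group. Of 10 fat cell markers 7 were tested, 2 of them (28.6%) were lower in NMJ at 10 months and 3 (42.9%) at 30 months, beside 5.05% and 4.25% of all tested genes, and none was higher. Their summed level was 143 ± 25.7 CPM (SD, n = 8) against 92.5 ± 30.8 CPM at the junction at 10 months, and 148 ± 39.0 against 119 ± 34.7 CPM at 30 months. The most abundant, Pnpla2, a lipase that muscle also expresses, averaged 68.7 and 44.8 CPM in xNMJ and NMJ at 10 months. The part of fat cells in the drop of Car3 was not tested.

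Aqp4 forms the water channels of the fast-fiber surface membrane, where it is anchored to the dystrophin complex. Its 10m xNMJ libraries read 11.9, 21.1 and 38.7 CPM (lowest, median, highest) and its 10m NMJ libraries 0.123, 4.23 and 14.5 CPM. At 30 months the values were 5.22, 19.0 and 35.5 CPM in xNMJ and 0.540, 3.07 and 8.25 CPM in NMJ. The regions overlapped on this scale through their extreme libraries at both ages. The lowest NMJ library at 10 months held 1 count of Aqp4, under the floor of 3 counts. Its log2 fold change was -2.75 ± 0.61 (SE) at 10 months and -2.98 ± 0.61 at 30 months with TMM scaling, and -2.21 and -2.38 with library totals. Aqp4 lies on chromosome 18 (GRCm38, chr18:15389496-15410982, minus strand).

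Only 3 of 12 aquaporin genes passed the filter on low counts, and the other 2 are found mostly in other cells. Aqp1, the water channel of capillary endothelium, was lower in NMJ at both ages (-0.87, adjusted p = 0.039, and -1.36, adjusted p = 0.0016). Aqp7, the glycerol channel of fat and capillaries, had changes of -0.76 and -0.89 that did not pass (adjusted p = 0.235 and 0.162). Aqp1 averaged 47.6 and 38.4 CPM in xNMJ and NMJ at 10 months.

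Of the 15 tested genes of the dystrophin complex, 4 (26.7%) were higher and 2 (13.3%) lower in NMJ at each age, beside 6.5% and 5.05% of all tested genes at 10 months and 5% and 4.25% at 30 months. Dmd, which encodes dystrophin, fell by 0.58 and 0.63 on the log2 scale (adjusted p = 0.018 and 0.011) with TMM scaling, whereas its mean CPM of library totals, 133 and 130 at 10 months and 135 and 134 at 30 months, hardly moved. Utrn, the synaptic relative of dystrophin, rose by 1.95 and 2.44, and Sntb2, a syntrophin of the junction, by 1.87 and 2.29.

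Padi2 was the only citrullinating enzyme that passed the filter; Padi1, Padi3, Padi4 and Padi6 averaged under 1 CPM in every group. Its 10m xNMJ libraries read 35.0, 84.5 and 113 CPM (lowest, median, highest) and its 10m NMJ libraries 7.49, 20.9 and 32.6 CPM. At 30 months the values were 25.2, 71.4 and 136 CPM in xNMJ and 7.79, 18.6 and 34.1 CPM in NMJ. The regions did not overlap at 10 months, and at 30 months the lowest xNMJ library lay under the 2 highest NMJ libraries. The log2 fold change was -2.49 ± 0.33 (SE) at 10 months and -2.49 ± 0.33 at 30 months with TMM scaling, and -1.94 and -1.86 with library totals.

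By the rule for likeness, the Pearson correlation of TMM-scaled log2 CPM over the 32 libraries, the genes closest to Padi2 were Idh2 (r = 0.93), Ogdh (r = 0.92) and Oxct1 (r = 0.92), which encode mitochondrial enzymes of the citric acid cycle and of ketone use. Much of such an r is the region difference that all of them share. After the mean of each group was taken off, Idh2 was still the closest (r = 0.73), followed by Atp5b (r = 0.64), a subunit of ATP synthase, and Zfp629 (r = 0.64). Idh2 itself was lower in NMJ by 2.19 and 1.98 on the log2 scale. These r values are across libraries that share depth and scaling factors, and are a description.

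Of the 5 genes Ccdc36 had the highest mean values per transcript length after Car3, with libraries far apart within each group. Its 10m xNMJ libraries read 124, 365 and 1089 CPM (lowest, median, highest) and its 10m NMJ libraries 11.9, 60.9 and 153 CPM. At 30 months the values were 7.51, 249 and 1081 CPM in xNMJ and 4.57, 74.5 and 205 CPM in NMJ. The ranges overlapped at both ages, and the lowest 30m xNMJ value came from replicate 5. The log2 fold change was -3.14 ± 0.65 (SE) at 10 months and -2.62 ± 0.64 at 30 months with TMM scaling. Without replicate 1 of 30m xNMJ, the highest library, it was -1.89 at 30 months. With library totals the changes were -2.60 and -1.89.

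Ccdc36 followed the insert size of the library. Over the 32 libraries, as deviations from the group means, r was -0.73 and Spearman's rho -0.78 (permutation p = 1e-05 for each, the smallest that 100000 permutations can give, and adjusted p = 5e-05 over the 5 genes). Without the 2 libraries farthest from the median insert size r was -0.89. Within the groups r was -0.89 (xNMJ) and -0.62 (NMJ) at 10 months, and -0.96 and -0.83 at 30 months. The 2 libraries with an insert of 79 bp were the 2 highest of all, and the libraries with inserts of 126 to 131 bp read between 4.57 and 15.0 CPM in either region. For the other genes r was between -0.19 and 0.38, and none passed (permutation, smallest adjusted p = 0.309), although Car3 had r = -0.47 without the 2 farthest libraries. The r of 0.38, of Aqp4, was 0.093 without them. Within single groups of 8, Car3 had r = -0.74 in 30m xNMJ and -0.51 in 10m xNMJ, but 0.42 in 10m NMJ. Padi2 had r = -0.76 in 30m NMJ, Aqp4 0.58 in 10m NMJ, and 0610009O20Rik -0.63 in 10m xNMJ but 0.62 in 10m NMJ. With the insert size as a covariate the region difference of Ccdc36 was -1.43 at 10 months and -1.31 at 30 months, while Car3 was at -2.84 and -2.64. With the same covariate Aqp4 was at -3.74 at 10 months, beside -2.75 without it, and at -3.49 at 30 months, beside -2.98. Libraries with inserts of 99 to 109 bp were set side by side in a choice made after the data were seen. They were 5 xNMJ libraries, 3 at 10 months and 2 at 30 months, and 7 NMJ libraries, 1 and 6, so that the ages were mixed unequally. There Ccdc36 ranged from 124 to 259 CPM (median 143) in xNMJ and from 57.1 to 205 CPM (median 79.5) in NMJ, and Car3 from 1484 to 2741 CPM (median 1862) and from 482 to 948 CPM (median 715).

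**Figure D2:**
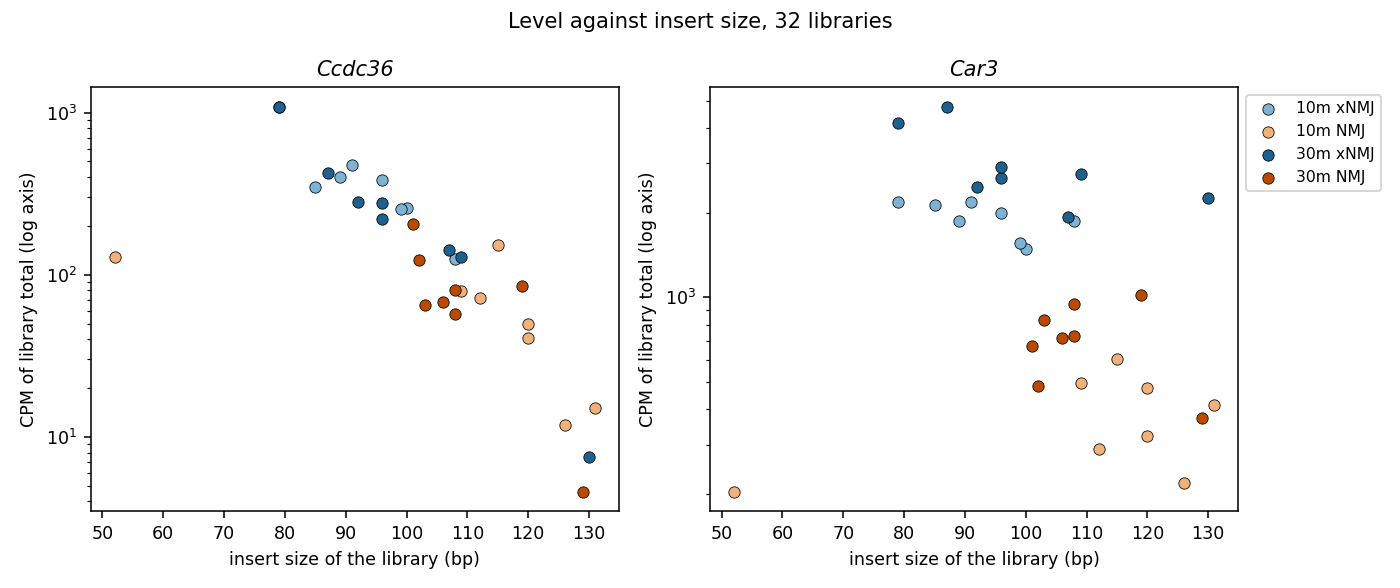
CPM of library total (log axes) of Ccdc36 on the left and Car3 on the right against the insert size of the library in bp; each point is 1 of the 32 libraries, colored by group. Ccdc36 is highest, at 1089 CPM, in an xNMJ library of 79 bp and lowest, at 4.57 CPM, in an NMJ library of 129 bp. Between 52 and 101 bp there is no NMJ library, at 99 to 109 bp the medians are 143 (xNMJ) and 79.5 CPM (NMJ), and for Car3 every xNMJ library lies above every NMJ library.

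Reads of Ccdc36 can be shared with other genes. Of the 2860 stretches of 31 bases in its transcript (GENCODE M21, either strand), 110, or 3.85%, occur in coding transcripts of 88 other genes, most of them in Kif3a (59) and Timm22 (52). Kif3a, a motor protein, and Timm22, a mitochondrial import channel, were both lower in NMJ as well (-2.95 and -2.13 at 10 months, adjusted p = 9.1e-04 and 4.8e-05). St8sia4, with 23 shared stretches, had changes of -0.16 at 10 and at 30 months that did not pass (edgeR, adjusted p = 0.875 and 0.897). In Padi2 102 of 4744 stretches (2.15%) were shared, in Aqp4 5, in Car3 1 and in 0610009O20Rik none. Anapc7, Tmed5 and Atp5g1, which shared most with Padi2, passed at neither age (edgeR, smallest adjusted p = 0.475). The 3′ end of Ccdc36 further overlaps 1700102P08Rik on the other strand (GRCm38, chr9:108392805-108410934), and the libraries do not keep strand. Noncoding genes overlap Aqp4 (AC133525.2), Padi2 (Gm13031 and, on the same strand, Gm26226) and 0610009O20Rik (1700086O06Rik), and for Car3 no overlap was listed. Of 11 genes listed as its partners in meiosis, itself included, only Mei4 also passed the filter, at 1.92 CPM in 10m xNMJ. Whether reads from other genes contribute to its level was not tested. The genes most like Ccdc36 over the 32 libraries were Dennd4a (r = 0.94), Phospho1 (r = 0.93) and Pou1f1 (r = 0.93), and after the group means were taken off Akap5 (r = 0.90), Dennd4a (r = 0.88) and Pou1f1 (r = 0.88); none of these shares a stretch of 31 bases with it.

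The sequence before the start site could be read for Padi2 and Ccdc36, and is shown because both fell at the junction, where E-boxes (CANNTG, bound by myogenic factors) and N-boxes (CCGGAA, bound by ETS factors) are known from synaptic genes. These are the 250 bases upstream of the RefSeq start (GRCm38.p6), for Padi2 chr4:140906110-140906359 on the plus strand and for Ccdc36 chr9:108431827-108432076 on the minus strand, with GC-boxes (GGGCGG on either strand) in capitals.
Padi2: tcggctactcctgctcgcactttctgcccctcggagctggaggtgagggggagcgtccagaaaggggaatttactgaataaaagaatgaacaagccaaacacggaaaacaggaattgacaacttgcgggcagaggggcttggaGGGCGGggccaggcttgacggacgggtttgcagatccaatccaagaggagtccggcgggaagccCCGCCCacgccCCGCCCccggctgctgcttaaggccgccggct
Ccdc36: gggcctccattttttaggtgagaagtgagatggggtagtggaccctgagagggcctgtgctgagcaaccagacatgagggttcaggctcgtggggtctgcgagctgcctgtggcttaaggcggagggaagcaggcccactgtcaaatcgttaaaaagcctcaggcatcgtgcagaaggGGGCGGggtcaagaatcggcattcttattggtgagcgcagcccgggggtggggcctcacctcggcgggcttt
Neither holds an E-box or an N-box on either strand, while 66.2% and 12.0% of the 32851 promoters of this length do. GC-boxes occur 3 times before Padi2 and once before Ccdc36, and 32.7% of all promoters hold at least 1. The start that GENCODE M21 gives Ccdc36, at the upper end of chr9:108403611-108428484, lies downstream of the RefSeq start, and Padi2 spans chr4:140906344-140952586.

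The weakest of the 5 was 0610009O20Rik, whose mitochondrial product is cut under stress and then activates the kinase Eif2ak1. Its 10m xNMJ libraries read 32.7, 43.9 and 57.5 CPM (lowest, median, highest) and its 10m NMJ libraries 19.3, 24.9 and 41.8 CPM. At 30 months the values were 17.9, 33.3 and 44.6 CPM in xNMJ and 8.04, 23.4 and 47.3 CPM in NMJ. The regions overlapped at both ages, and at 30 months the highest library of all was an NMJ library. The log2 fold change was -1.27 ± 0.27 (SE) at 10 months and -0.94 ± 0.26 at 30 months with TMM scaling, but -0.70 and -0.30 with library totals, so that most of the 30-month difference depends on the scale. The gene lies on chromosome 18 (GRCm38, chr18:38250255-38265461, plus strand).

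Of 17 tested genes of the same stress pathway none was lower in NMJ at either age, which is near the 5.05% and 4.25% of all tested genes. Psat1 and Asns, which make serine and asparagine, were higher at 10 months (5.20 and 3.86, adjusted p = 0.0030 and 0.042), and did not pass at 30 months (1.43 and 1.45, adjusted p = 0.462 and 0.503). Eif2ak1 had changes of -0.41 and -0.40 (adjusted p = 0.188 and 0.217), and Atf4, the transcription factor at the end of the pathway, of -0.05 and 0.33 (adjusted p = 0.929 and 0.392). The genes closest to 0610009O20Rik were Nudt14 (r = 0.88), Atp5a1 (r = 0.86) and Pde4a (r = 0.85), and, after the group means were taken off, St3gal3 (r = 0.69), Nudt14 (r = 0.67) and Optc (r = 0.67).

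Levels can be compared between genes only per length. In TPM, which is scaled for transcript length, Car3 averaged 1546 ± 351 (SD, n = 8) in 10m xNMJ and Ccdc36 192 ± 153. 0610009O20Rik and Padi2, at 23.7 ± 6.60 and 21.5 ± 6.91 TPM, differed by less than their spread, and Aqp4 was the lowest at 6.06 ± 2.71. In 10m NMJ the order was Car3 (299 ± 119), Ccdc36 (28.0 ± 20.8 TPM), 0610009O20Rik (13.5 ± 4.49), Padi2 (5.21 ± 2.19) and Aqp4 (1.21 ± 1.17), so that 0610009O20Rik and Padi2, alike outside the junction, were apart within it.

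By the same fit, 706 tested genes (5.05%) were lower in NMJ at 10 months and 595 (4.25%) at 30 months, 435 of them (3.11%) at both. All 5 genes are on this list, which their choice fixed, and nothing is read from it. The list itself depends on the setting, since Ccdc36 was not on it with the insert size as a covariate, nor 0610009O20Rik with fiber gene or library total scaling. With TMM scaling 39 tested genes (0.279%) had every NMJ library under every xNMJ library at both ages, and Car3, Aqp4 and Padi2 were 3 of them. Without replicate 5 of 30m xNMJ the count was 53 genes, and Ccdc36 was then also among them. With all libraries kept, the 10 others of the 39 with the lowest mean change included Kcnc4, Dglucy, Gm15816, Oxct1, Aldh1a1, Ankrd23, Rabep2, Mkx and Hfe2. Kcnc4, a voltage-gated potassium channel, was lower by 1.91 at 10 months and 2.40 at 30 months on the log2 scale, and Hfe2, the hemojuvelin of iron regulation, by 1.24 and 1.20. Aldh1a1, a retinaldehyde dehydrogenase, was also the gene most like Car3 over the 32 libraries (r = 0.91), followed by Olfr77 (r = 0.91) and Rabep2 (r = 0.90). With the group means taken off, Pp2d1 (r = 0.75), Gm10516 (r = 0.71) and Klhl40 (r = 0.71) were closest to Car3. For Aqp4 the closest were Oxct1 (r = 0.83), Znhit1 (r = 0.80) and Echs1 (r = 0.80), and, with the group means off, Sh3kbp1 (r = 0.61), Slit1 (r = 0.60) and 3110056K07Rik (r = 0.56).

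Transcripts gained at the junction take a part of the counts and lower the share of all others. This part was measured only for genes called higher in NMJ in these same libraries. Counts from junction material in genes not called higher stay in the remainder, so that the part may be understated. The 909 genes that were higher in NMJ at 10 months held 1.47% ± 0.335 (SD, n = 8) of the counts outside it and 7.08% ± 1.02 at it. All other genes together thus went from 98.5% to 92.9% of the counts, which is 1.06-fold lower. At 30 months the 700 genes higher in NMJ left 99.1% and 94.9%, or 1.04-fold. When genes were called on library totals instead, a choice added after the data were seen, 2659 genes at 10 months rose from 8.20% to 19.6% of the counts and 2687 at 30 months from 8.90% to 20.2%, and the remainder was 1.14-fold lower at both ages. On the same scale Car3 was 5.05-fold lower at 10 months and 4.14-fold at 30 months, Aqp4 4.62-fold and 5.20-fold, Padi2 3.84-fold and 3.63-fold, Ccdc36 6.05-fold and 3.71-fold, and 0610009O20Rik 1.63-fold and 1.23-fold.

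**Figure D3:**
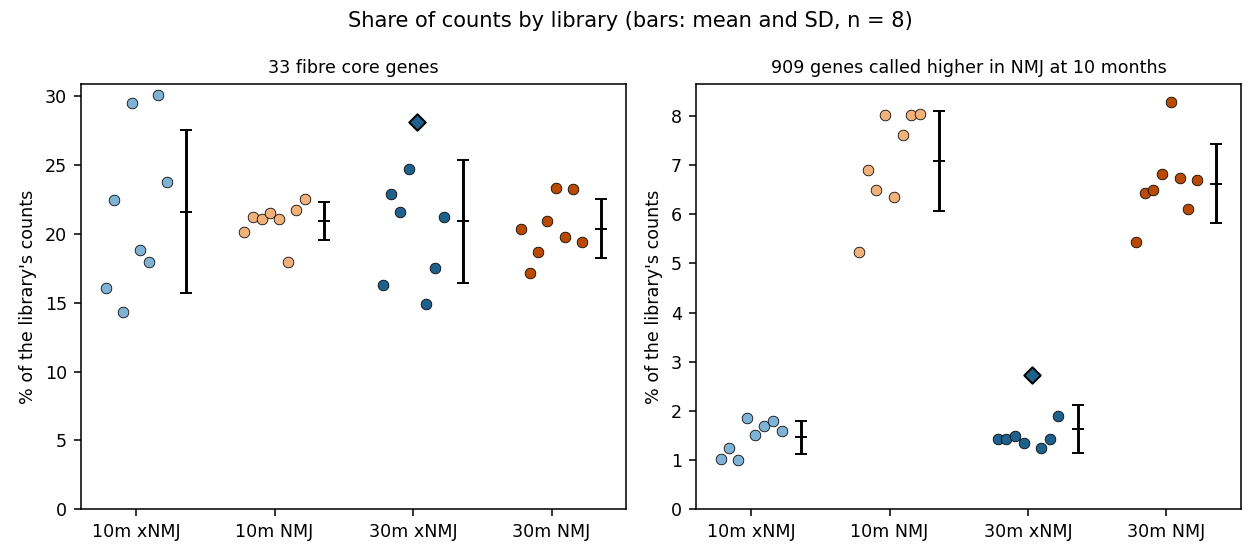
Percent of each library's counts taken by 33 genes of the contractile and energy apparatus (left) and by the 909 genes higher in NMJ at 10 months (right), from 0; points are libraries, bars are mean and SD (n = 8), and the diamond is replicate 5 of 30m xNMJ. At 10 months the fiber genes take 21.6% of xNMJ and 20.9% of NMJ counts, while the genes higher in NMJ go from 1.47% to 7.08%.

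The general fiber transcripts were measured with a list of 33 genes for the contractile apparatus, calcium handling and energy supply, from Acta1 to Ttn. They held 21.6% ± 5.90 (SD, n = 8) of the xNMJ counts and 20.9% ± 1.38 of the NMJ counts at 10 months, a difference of -0.705 percentage points (two-sided exact permutation test over 12870 splits, p = 0.744, adjusted p = 0.764 over 2 ages). For 30 months the shares were 20.9% ± 4.47 and 20.4% ± 2.14, a difference of -0.540 (exact p = 0.764, adjusted p = 0.764). The share thus ranged widely within xNMJ, from 14.3% to 30.1% at 10 months, and a loss of fiber transcripts at the junction was not detectable by it. The test did not account for insert size. At 79 bp the xNMJ libraries held 16.1% at 10 months and 16.3% at 30 months. Those of 108 bp (10 months) and 130 bp (30 months) held 29.5% and 28.1%. In 10m NMJ the libraries of 52 and 131 bp held 22.5% and 21.2%. Among libraries of 99 to 109 bp, 5 xNMJ libraries held 21.6% to 30.1% and 7 NMJ libraries 17.1% to 23.2%. The ages were mixed unequally there. The part of insert size was not tested. Relative to the summed counts of these 33 genes, Car3 was 5.25-fold lower in NMJ at 10 months and 4.25-fold at 30 months, Aqp4 4.54-fold and 5.16-fold, Padi2 3.99-fold and 3.57-fold, and Ccdc36 6.91-fold and 4.02-fold. For 0610009O20Rik these values were 1.69-fold and 1.23-fold.

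With TMM scaling the 33 fiber genes had a median log2 change of -0.57 at 10 months and -0.67 at 30 months, beside 0.00 and -0.01 over all tested genes. At 10 months 14 of the 33 were lower in NMJ and at 30 months 17, and none was higher; on library totals their median was -0.02 and -0.03. Ckm, the muscle creatine kinase, changed by -1.08 at either age, and Actc1, cardiac α-actin at 39.0 CPM in 10m xNMJ, by -1.98 and -2.15, the lowest of the list. None of the 33 had a lower change than Car3, Aqp4, Padi2 or Ccdc36 at either age, whereas 1 at 10 months and 4 at 30 months were under 0610009O20Rik. The scale also sets the balance of the calls. With TMM scaling 43.7% of the genes called at 10 months and 45.9% at 30 months were lower in NMJ, but with library totals 7.32% and 2.75%. All 5 drops kept their direction on the 3 scales.

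**Figure D4:**
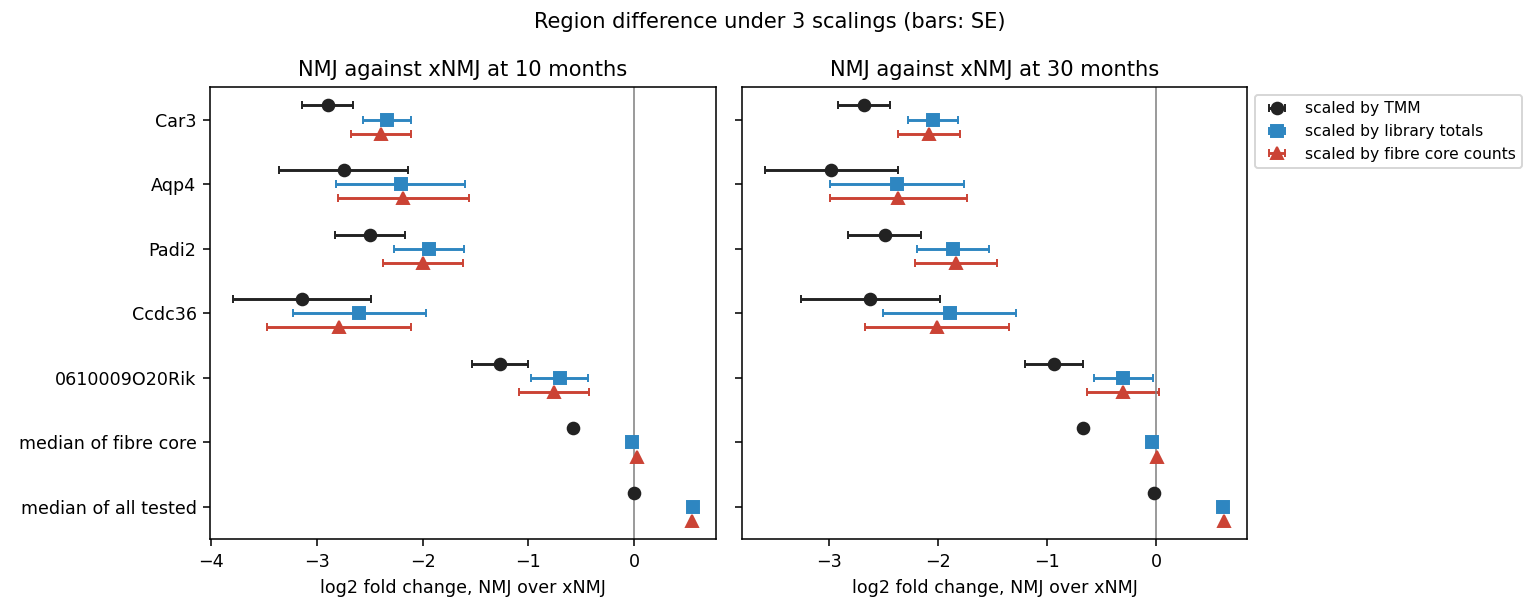
Log2 fold change of NMJ over xNMJ at 10 months (left) and 30 months (right) for the 5 genes and for the medians of 33 fiber genes and of all 13990 tested genes, scaled by TMM, by library totals or by the counts of the fiber genes. Bars are SE. Car3 lies between -2.89 and -2.34 at 10 months, while the median of the fiber genes is at -0.57 with TMM and near 0 on the other scales.

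The genes were also read in replicate 5 of 30m xNMJ, the library with junction transcripts. Its Car3 was 2245 CPM, where the other 7 libraries of the group lay between 1932 and 4761 and the 30m NMJ median was 721. Its Padi2 was 51.4 CPM (others 25.2 to 136, NMJ median 18.6) and its Aqp4 15.0 CPM (others 5.22 to 35.5, NMJ median 3.07). Its 0610009O20Rik was 23.4 CPM (others 17.9 to 44.6), the same as the NMJ median of 23.4 CPM. These 4 lay within the range of their group. Ccdc36, at 7.51 CPM with an insert of 130 bp, lay under the other xNMJ libraries (129 to 1081) and also under the NMJ median of 74.5 CPM. Without this library the changes at 30 months were -2.74 for Car3, -3.04 for Aqp4, -2.56 for Padi2, -2.81 for Ccdc36 and -1.01 for 0610009O20Rik.

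Markers of other cells moved with the regions, and their counts stand beside 6.5% of all tested genes higher and 5.05% lower at 10 months and 5% and 4.25% at 30 months. The calls are on the TMM scale and the sums on that of library totals, so that a sum can rise where members were called lower. All 12 Schwann cell markers tested were higher in NMJ at both ages, with sums of 15.6 to 48.9 CPM over xNMJ and 465 to 596 CPM over NMJ libraries at 10 months; the most abundant was Pmp22. The 30-month sums were 10.7 to 52.0 and 339 to 544 CPM. Of 10 fibroblast markers 7 were higher at 10 months and 6 at 30 months, led by Dcn, with sums of 216 to 602 and 1482 to 2393 CPM at 10 months and of 185 to 467 and 1505 to 2346 CPM at 30 months. Of 8 macrophage markers 4 were higher at each age, with mean sums of 20.4 and 170 CPM at 10 months and 19.4 and 144 CPM at 30 months, led by Mrc1. The 30m xNMJ mean was raised by replicate 2, at 72.4 CPM, where the other libraries of the group read 2.53 to 18.5 CPM. Of 9 tested endothelial markers, led by Fabp4, 1 was lower at 10 months and 4 at 30 months, with mean sums of 368 and 361 CPM and of 401 and 311 CPM. Of 8 pericyte and smooth muscle markers, led by Rgs5, none passed at 10 months and 2 were lower at 30 months, with mean sums of 226 and 243 CPM and of 227 and 253 CPM. Of 5 satellite cell markers only Sdc4 was higher, at both ages, and of 4 tendon markers only Mkx was lower. Of 10 slow and oxidative fiber genes 2 were higher and 1, Myl3, lower at 10 months, and 1 was higher at 30 months. The median log2 change of these 10 genes was -1.37 at 10 months, with 7 under 0, and -0.07 at 30 months, with 5 under 0. Mean sums of the list were 939 and 1192 CPM in xNMJ and NMJ at 10 months, and 706 and 943 CPM at 30 months. The part of these cells in the drop of the 5 genes was not tested beyond the shares of counts above.

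Within each region the 5 genes were set against the summed synaptic fiber markers, as deviations from the age means over 16 libraries that share scaling factors. None of 5 genes passed in NMJ (permutation test, smallest adjusted p = 0.830 over 10 relations). In xNMJ Ccdc36 passed (r = 0.75, rho = 0.79, permutation p = 9e-05, adjusted p = 9e-04), with a positive sign. Car3 and 0610009O20Rik had r = 0.60 and 0.57 (adjusted p = 0.065 and 0.069), and passed on log2(TPM + 1) with r = 0.70 and 0.69 (adjusted p = 0.012 for each, permutation). For Ccdc36 r was 0.60 without the 2 libraries farthest from the median of the sum, and r = 0.68 (permutation, adjusted p = 0.0174) without replicate 5 of 30m xNMJ. Ccdc36 followed the insert size, as given above, and the sum in xNMJ also varied with it. At 10 months the sum was 5831 CPM at 79 bp and 1434 CPM at 108 bp. At 30 months it was 6409 CPM at 79 bp and 1537 CPM at 130 bp, but 3200 CPM at 87 bp and 5040 CPM at 109 bp. The part of insert size in these xNMJ relations, those of Car3 and 0610009O20Rik included, was not tested. Outside the junction the sum was also mostly Lrp4, the agrin receptor, which averaged 3553 of 3737 CPM there at 10 months. At the junction Lrp4 averaged 1312 of 6419 CPM at that age, and is itself lower than outside it. Without Lrp4, an alternative added after seeing this, the 10-month sum was 185 ± 27.9 CPM (SD, n = 8) outside the junction and 5108 ± 1007 at it. Ccdc36 in xNMJ then had r = -0.81, rho = -0.51 and an adjusted p of 0.125 (permutation), and r = -0.25 without replicate 5 of 30m xNMJ. Car3 in NMJ, in contrast, had r = -0.71 and rho = -0.71 (permutation p = 0.0030, adjusted p = 0.030 over the 10 relations of this alternative alone). This r was -0.51 without the 2 libraries farthest from the median. With the planned sum, Lrp4 included, Car3 in NMJ had r = -0.22 (permutation, adjusted p = 0.830), and r = -0.12 on log2(TPM + 1). The relation thus depends on a choice made after the data were seen.

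Age was not used to choose the genes and could be tested. Of all tested genes 0% passed between 30 and 10 months in NMJ (edgeR; 372 genes at an unadjusted p under 0.05, 0 by DESeq2, and 3 and 0 by limma on log2(TPM + 1) and log2(TPM + 0.1)), 0.0429% in xNMJ, or 6 genes (1322 at an unadjusted p under 0.05, 84 by DESeq2, 0 in a fit of those groups alone), and 0% for the interaction of age and region (708 at an unadjusted p under 0.05, 10 by DESeq2). None of the 5 genes was among them. The smallest p belonged to Pitx3 in NMJ (adjusted p = 1.0) and to Fkbp10 in xNMJ (adjusted p = 0.031) and for the interaction (adjusted p = 0.156).

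Car3 came closest, with higher values at 30 months in both regions. In NMJ its log2 change was 0.90 ± 0.23 (SE; unadjusted p = 3.4e-04, adjusted p = 1.0 in edgeR), from 378 ± 143 CPM (SD, n = 8) at 10 months to 721 ± 218 CPM at 30 months. In xNMJ it was 0.68 ± 0.23 (unadjusted p = 0.0046, adjusted p = 0.316), from 1908 ± 271 to 2983 ± 974 CPM. Over the alternatives, those leaving out a library apart, the adjusted p lay between 0.251 and 1.0 in NMJ and between 0.132 and 0.789 in xNMJ. The region drop of Car3 did not differ detectably between ages, with an interaction of 0.22 ± 0.32 (adjusted p = 1.0).

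For the other 4 genes the 95% interval of the age difference included 0 in both regions. In NMJ the log2 changes were -0.45 ± 0.58 (SE) for Aqp4, -0.09 ± 0.32 for Padi2, 0.23 ± 0.60 for Ccdc36 and -0.07 ± 0.26 for 0610009O20Rik. In xNMJ they were -0.22 ± 0.57, -0.09 ± 0.31, -0.29 ± 0.60 and -0.40 ± 0.26. The unadjusted 95% intervals were wide, from -1.63 to 0.73 for Aqp4 in NMJ and from -0.74 to 0.55 for Padi2 there, so that changes of up to these sizes are not excluded at this depth and number of libraries. The interactions were -0.23 ± 0.81 for Aqp4, 0.00 ± 0.48 for Padi2, 0.52 ± 0.85 for Ccdc36 and 0.33 ± 0.37 for 0610009O20Rik, all with an adjusted p of 1.0.

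**Figure D5:**
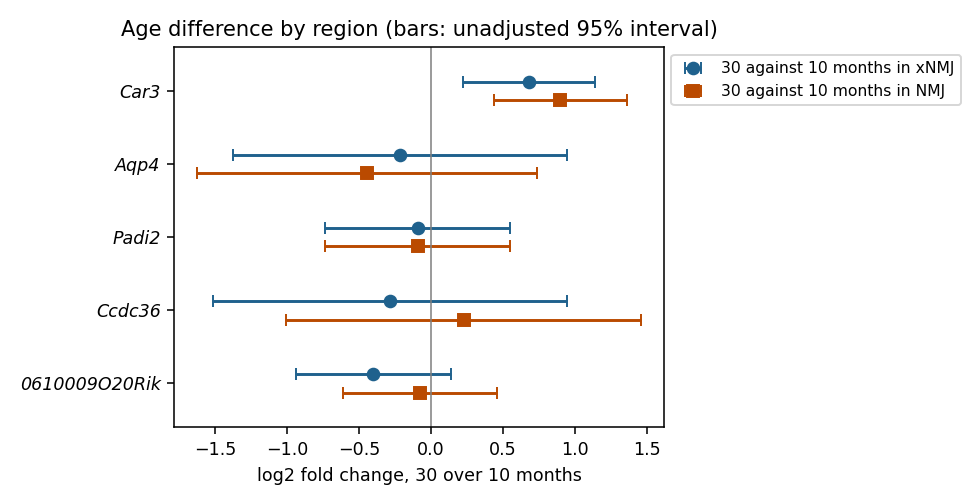
Log2 fold change of 30 over 10 months for the 5 genes in xNMJ (circles) and NMJ (squares), with unadjusted 95% intervals. The intervals of Car3, around 0.68 and 0.90, lie above 0, but neither change passes after adjustment over all tested genes, and those of the other 4 genes include 0.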

How the data were processed

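SMART-Seq v4 libraries, which do not keep strand, of captured NMJ and xNMJ regions were trimmed by the authors with Cutadapt 1.9.1 and assigned with kallisto 0.43.1, per the submitters' processing notes, to protein-coding transcripts of GRCm38 (Ensembl). Counts were deposited as whole numbers for each gene, not normalized and without molecular identifiers; a read matching several transcripts was split among them, so that families with shared sequence are less certain. TPM, also deposited, scale those assignments for transcript length and library total.

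Groups came from the labels. Counts were fitted for all 4 groups together in edgeR 4.0.16 (R 4.3.3; TMM, quasi-likelihood, at least 1 CPM in at least 8 libraries, Benjamini-Hochberg adjustment over 13990 genes, threshold 0.05). Log2 CPM for correlations used a prior count of 2. Single values were compared by exact or permutation tests. Genes outside the 5 were named by likeness to them, by the size of a fall without overlap, from fixed lists, or for the smallest p of an age comparison; 1 gene that this rule names is not reported here. The 5 genes and the lists were chosen with earlier results of these data known. The labels do not state that libraries came from separate mice, and p-values measure the spread between libraries. No 2 libraries had identical counts. Positions and transcripts came from GENCODE M21 and promoters from RefSeq (GRCm38.p6), where 2 of the 5 genes were read. Promoter entries on chromosome 18, where Aqp4 and 0610009O20Rik lie, were left out of the search, and Car3 was not matched. The fits were also run on simulated data, where most genes given a lower level in NMJ were not called. A gene that did not pass is not shown to be unchanged. Alternatives used DESeq2 1.42.0 and limma 3.58.1. Floors cover counting error only.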

Additional observations from a re-analysis of the deposited data

Results flagged for a closer look

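In 28 sets of 8 libraries looked at (5 genes, the fiber share and the synaptic sum in 4 groups), 2 held a library far from the others, where chance flags about 1 in 20. Both concern Ccdc36. Replicate 1 of 10m xNMJ read 1089 CPM, where the next library of the group read 475 and the median was 365. Replicate 1 of 30m xNMJ read 1081 CPM, where the next read 424 and the median was 249. Both libraries have an insert size of 79 bp, the smallest among the xNMJ libraries. The relation of Ccdc36 to the insert size is given above; its part in these 2 values was not tested separately.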

How the results depend on the processing

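The 5 genes were chosen as lower in NMJ in these libraries, so their region values below are a description, and neither a kept sign nor a kept call is support. Ccdc36 was not called with the insert size at either age or by limma at 30 months. 0610009O20Rik was not called with fiber gene or library total scaling at either age, by limma on log2(TPM + 0.1) at 10 months, or by limma or from those groups alone (-0.95, beside -0.94) at 30 months. With the insert size as a covariate Ccdc36 was at -1.43 at 10 months. Scaled by fiber genes and by library totals, Car3 was at -2.39 and -2.34 at 10 months and -2.09 and -2.05 at 30 months, and 0610009O20Rik at -0.76 and -0.70 at 10 months. By limma on log2(TPM + 1) and log2(TPM + 0.1), 0610009O20Rik was at -0.77 and -0.82 at 10 months, and at 30 months Padi2 at -1.59 and -1.77, Car3 at -2.05 with either, Aqp4 at -1.56 with the first, and Ccdc36 at -1.54 and -1.58. The insert size moved Aqp4 to -3.74 at 10 months and Ccdc36 to -1.31 at 30 months. Genes called between regions numbered 2724 (fiber genes), 2869 (library totals), 2918 and 3014 (limma) at 10 months, beside 1615, and 2744, 2763, 3561 and 3681 at 30 months, beside 1295. Age called 3 genes in NMJ by limma on log2(TPM + 1) and 0 on log2(TPM + 0.1). In xNMJ it called 84 by DESeq2, 0 from those groups alone, 2 with the insert size, 0 and 0 by limma, and 0 to 9 without 1 library. The interaction called 10 by DESeq2 and 0 to 1 without 1 library. The cause of these changes was not tested.

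Signs of small age changes turned. In NMJ, Aqp4 was 0.19 by limma (0.1), Padi2 0.028 (fiber genes), 0.080 and 0.094 (limma), Ccdc36 -0.13 (insert size) and 0610009O20Rik 0.020 (fiber genes). The interaction of Aqp4 was 0.26 (insert size), 0.21 and 0.52 (limma), and that of Padi2 -0.049 (DESeq2), -0.049 (DESeq2 size factors), -0.013 (no filter) and -0.061 (insert size). Without 1 library, Padi2 ranged from -0.23 to 0.028 in NMJ and -0.31 to 0.030 in xNMJ, Ccdc36 from -0.053 to 0.53 and -1.02 to 0.11, and 0610009O20Rik from -0.24 to 0.058 in NMJ. The interactions ranged from -0.50 to 0.20 for Aqp4, -0.14 to 0.22 for Padi2 and 0.12 (without replicate 1 of 10m xNMJ) to 1.24 (without replicate 1 of 30m xNMJ) for Ccdc36, which was 0.52 with all libraries, 0.12 with the insert size, 1.19 with the replicate block and 1.27 and 1.31 by limma, and the fiber share difference from -1.74 to 0.501 at 10 months and -1.40 to 0.492 at 30 months.

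Against the synaptic sum on log2(TPM + 1), r in xNMJ was 0.049 for Aqp4, 0.70 for Car3 and 0.69 for 0610009O20Rik, both now past the threshold, and in NMJ 0.016 for Ccdc36. Without Lrp4 it was -0.13 for Padi2, -0.81 for Ccdc36, -0.46 for Car3 and -0.30 for 0610009O20Rik in xNMJ, and -0.71 for Car3 and -0.18 for 0610009O20Rik in NMJ. Without Lrp4 and replicate 5 of 30m xNMJ it was 0.32 for Aqp4, -0.25 for Ccdc36 and -0.35 for Car3 in xNMJ. Without that replicate alone Padi2 was at -0.047.

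Whether the replicate numbers pair libraries was left undecided: the labels do not say so, and same-numbered deviations correlated between -0.0016 and 0.187 at 10 months and -0.0175 and 0.366 at 30 months, and 4 of 8 libraries of each region and age correlated best with their own number, where chance gives about 1 of 8, a hint from the data and not from the design. With a replicate block 1829 and 1531 genes were called between regions and 0 for the interaction, Aqp4 was at -3.60 between regions at 10 months, and its interaction was 0.55. Aqp4 is limited most by depth, with 1 count in its lowest library.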
